A study of Mus musculus with 13 samples.

Results

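The liver X receptors and the genes through which they move cholesterol out of macrophages were followed as a set of 10 genes, chosen by name from 24445 genes in the count table. Each gene was read from the RefSeq transcript with the highest total count. The set holds both receptors, *Nr1h2* (LXRβ) and *Nr1h3* (LXRα), the transporters *Abca1* and *Abcg1*, the apolipoproteins *Apoe*, *Apoc1* and *Apoc2*, and the targets *Mylip*, *Lpcat3* and *Arl4c*.

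LXRs are nuclear receptors that pair with RXR, sit on DNA at direct repeats spaced by a short gap, and are switched on by oxysterols and by desmosterol, an intermediate of cholesterol synthesis. In macrophages they are best known for turning on cholesterol efflux and for restraining inflammatory genes. They also drive fatty acid synthesis through *Srebf1*, but the genes of that branch are not among the 10.

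RNA-seq of bone marrow-derived macrophages (BMDMs) was available for 13 libraries. Mice were female and on the C57Bl/6J background, and their ages were not given. All of them carried *loxP* sites around an exon of *Acly* (Acly fl/fl), which encodes ATP citrate lyase, the enzyme that makes cytosolic acetyl-CoA from citrate. Control mice had no further change, whereas AclyM-KO mice also carried Cre in the *Lyz2* gene, so that *Acly* was deleted in myeloid cells, and the effects of Cre and of the deletion cannot be told apart. BMDMs grown in L929-conditioned medium were exposed to lipopolysaccharide (LPS) for 3 h (3 control and 3 AclyM-KO libraries) or 24 h (4 control and 3 AclyM-KO libraries), and unstimulated cells were not analysed here. The labels do not say whether replicates came from separate mice, so p-values measure the spread between these samples, which may be technical.

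Total counts were 21274102 to 59577343 in 12 libraries and 34467 in control 24 h replicate 1, where a single count stood for 22.4 CPM (counts relative to a TMM-scaled library size). That library was left out of the fit and of all means below. AclyM-KO 3 h replicates 1 and 2 were the least alike replicate pair. A chi-square statistic over genes, divided by its degrees of freedom, was 11.7 between them and 2.45 to 7.06 in the other replicate pairs. Against AclyM-KO 3 h replicate 3 it was 4.46 for replicate 1 and 6.23 for replicate 2, so it does not single out either library. The deletion was visible in every library kept. *Acly*, counted over the whole transcript, had 104.5, 106.8 and 106.3 CPM in control and 37.7, 46.2 and 41.5 in AclyM-KO macrophages after 3 h LPS, and 112.8, 109.0 and 107.4 against 30.1, 30.5 and 29.0 after 24 h. All 9 macrophage markers were detected. *Lyz2*, which carries the Cre, was lower in AclyM-KO libraries, and without it the summed macrophage markers were 5556 to 5707 CPM in control and 5565 to 5811 in AclyM-KO libraries at 3 h, and 3578 to 3743 against 3537 to 3715 at 24 h. Summed markers of neutrophils reached at most 15.3 CPM, with *Ly6g* and *Retnlg* at 0 in all 12 libraries, and those of 5 other cell types at most 5.18. In bulk RNA, fewer cells of a type and less RNA per cell cannot be told apart.

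The promoter of *Abca1* is shown first, because it is known for carrying an LXR element and because the gene was among those lower in AclyM-KO macrophages. The repeat, AGGTCA and again AGGTCA after any 4 bases, was searched on both strands in windows of 250 bases before to 50 bases after each RefSeq start site (GRCm38). With up to 2 mismatches in its 12 fixed bases, 0 of 11 windows of the 8 set members in the table held a match, against 3.02% of all 32851 windows. With up to 3 mismatches, a setting added after that result, windows of *Abca1* and *Arl4c* held one, as did 21.9% of all windows. The windows of *Abcg1* and *Apoc1* were not analysed here. The 250 bases before the *Abca1* start site, on the minus strand at chr4:53159896-53160145, read as follows, with the match in capitals.

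Abca1 upstream: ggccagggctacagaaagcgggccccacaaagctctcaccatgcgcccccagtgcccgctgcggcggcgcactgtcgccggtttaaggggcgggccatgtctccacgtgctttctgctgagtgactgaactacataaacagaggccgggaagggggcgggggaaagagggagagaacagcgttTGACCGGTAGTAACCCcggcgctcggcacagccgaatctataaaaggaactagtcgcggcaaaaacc

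The match runs against the direction of the gene, begins at base -67 from the start site and lies at chr4:53159947-53159962. Read on its own strand, it and the 2 overlapping matches of *Arl4c* (at -75, chr1:88702251-88702266, and at -65, chr1:88702241-88702256) have the following letters, with both copies of the repeat in capitals and the spacer in lower case.

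Abca1 at -67: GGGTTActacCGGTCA
Arl4c at -75: GGGTCAggcgGGGTCT
Arl4c at -65: CGGTCTcccgGGGTCA

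Counted from the 5′ end of the motif, *Abca1* differs from it by A1G, C5T and A11C, *Arl4c* at -75 by A1G, A11G and A16T, and *Arl4c* at -65 by A1C, A6T and A11G. These are matches of letters in a window that many genes share, and no binding was measured in these libraries.

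**Figure D1:**
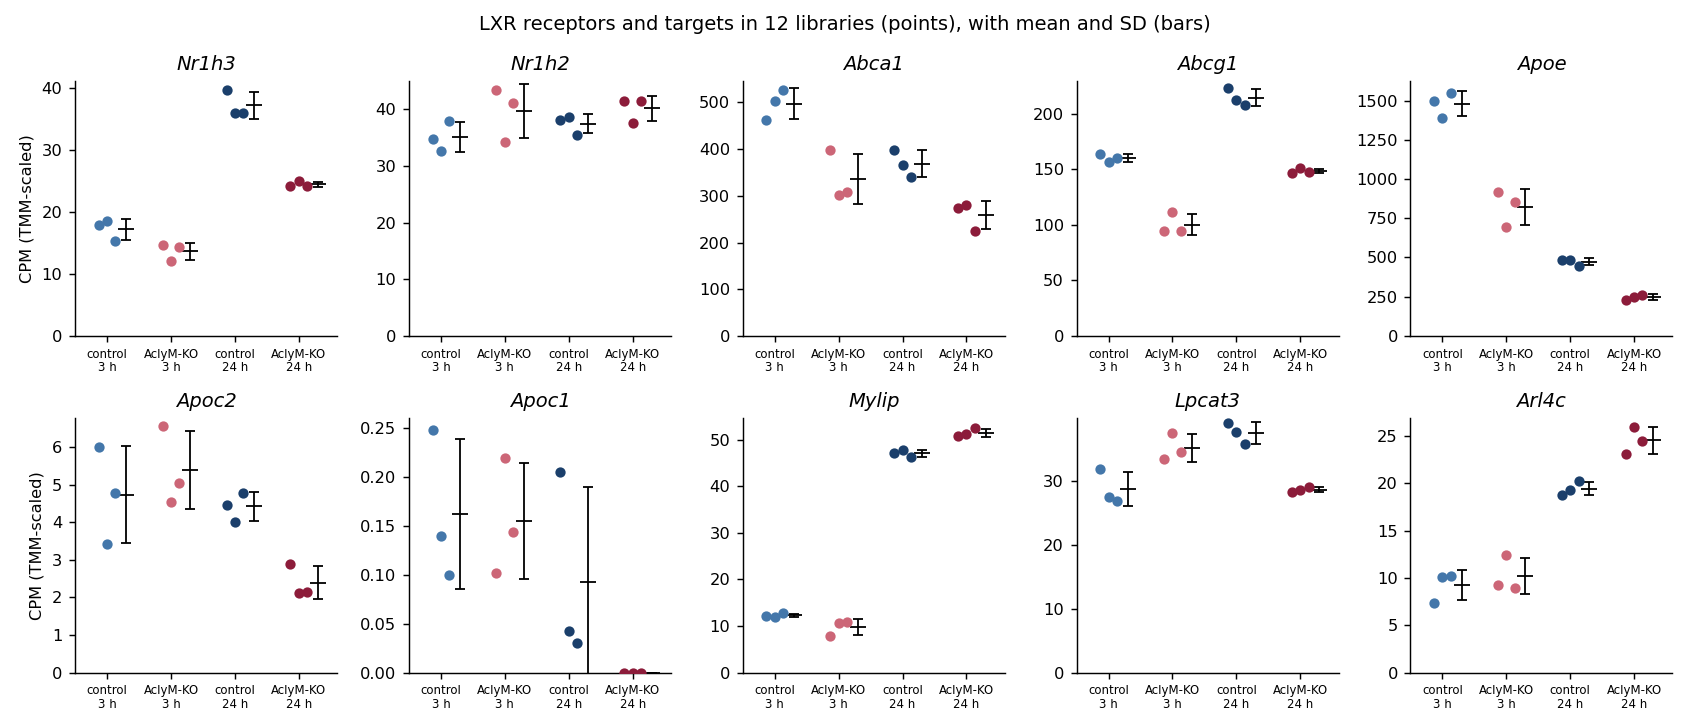
CPM after TMM scaling (vertical axis, linear from 0, 1 scale per gene) of the 10 genes in the 12 libraries kept, by genotype and hours of LPS. Points are libraries, and bars are mean and SD of 3 libraries (cut at 0 for *Apoc1*). AclyM-KO points of *Apoe*, *Abca1*, *Abcg1* and *Nr1h3* lie below the control points at both times, while *Nr1h2* overlaps.

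To ask how loss of *Acly* bears on the set, AclyM-KO and control macrophages were compared at each time with edgeR's quasi-likelihood test. A gene was called at a Benjamini-Hochberg adjusted p under 0.05 and a log2 fold change beyond 0.75, the thresholds of the study's methods. Of the 10 genes, 9 passed the filter on low counts and *Apoc1* did not. After 3 h LPS, *Apoe* alone was called and was lower, while 0.596% of the 11904 genes tested were called lower and 1.41% higher. After 24 h LPS, *Apoe* and *Apoc2* were called, both lower, against 0.479% lower and 0.899% higher over all genes. Most of the set moved by less than the fold threshold.

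Read by adjusted p alone, a rule added after the values were seen, 5 members were lower (*Nr1h3*, *Abca1*, *Abcg1*, *Apoe* and *Mylip*) and *Lpcat3* was higher after 3 h, against 6.91% of all genes lower and 8.50% higher. After 24 h, 6 were lower (*Nr1h3*, *Abca1*, *Abcg1*, *Apoe*, *Apoc2* and *Lpcat3*) and *Arl4c* was higher, against 5.57% lower and 8.32% higher. The count of lower members at 3 h was 3 without any 1 of the control replicates or without AclyM-KO replicate 2, and the lower count at 24 h was 5 or 6 with any library left out. The median log2 fold change of the 9 tested members was -0.31 at 3 h and -0.51 at 24 h, beside -0.005 and 0.006 over all genes tested. All AclyM-KO libraries lay below all control libraries for 5 members at 3 h and 6 at 24 h, against 14.7% and 14.9% of all genes. They lay above for 1 and 2 members, against 15.3% and 18.2% of all genes.

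**Figure D2:**
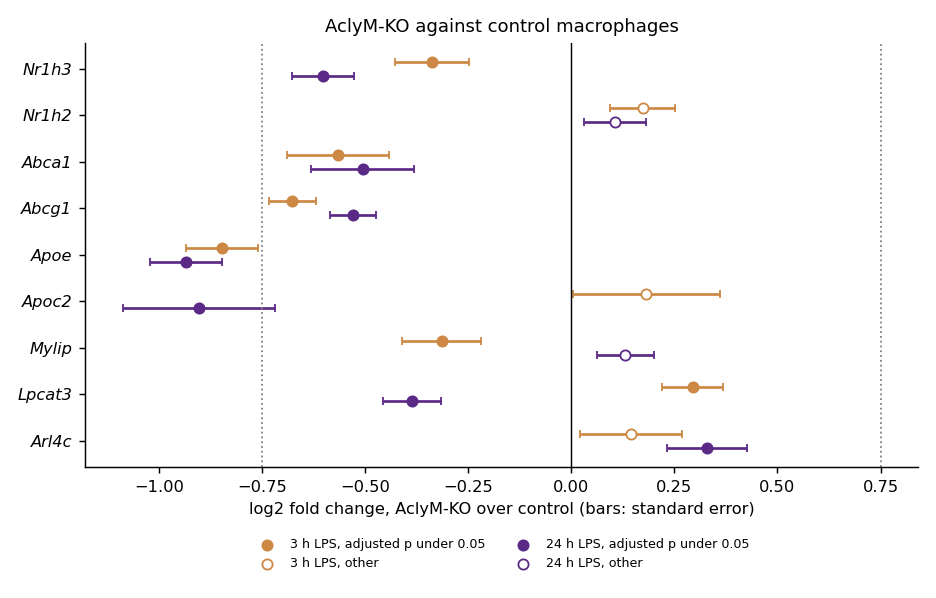
Log2 fold change of AclyM-KO over control (horizontal axis) for the 9 genes tested, after 3 h and 24 h LPS. Points are estimates from edgeR, bars the standard error, filled points have an adjusted p under 0.05, and dotted lines mark the fold threshold of 0.75. *Apoe* at both times and *Apoc2* at 24 h lie beyond the line.

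*Nr1h3* encodes LXRα and lies at chr2:91184061-91202834 on the minus strand. Control libraries had 17.8, 18.5 and 15.3 CPM after 3 h LPS and AclyM-KO libraries 14.6, 12.1 and 14.3. After 24 h the values were 39.7, 36.0 and 35.9 CPM in control and 24.2, 24.9 and 24.2 in AclyM-KO macrophages. The genotypes did not overlap at either time, and the gap was narrow at 3 h and wide at 24 h. In log2 terms AclyM-KO differed from control by -0.34 (standard error 0.09, adjusted p = 0.00969) at 3 h and -0.60 (standard error 0.08, adjusted p = 1.18e-06) at 24 h. The adjusted p at 3 h rose to 0.0537, 0.0758 and 0.0717 without control 3 h replicate 1, control 3 h replicate 2 and AclyM-KO 3 h replicate 2, respectively. The effect at the later time minus that at 3 h was -0.27 (standard error 0.12, adjusted p = 0.162), and without AclyM-KO 3 h replicate 2 it was -0.36 with an adjusted p of 0.0381. *Gm13783* on the same strand and *Gm23390* on the opposite strand overlap this gene, and the strand setting of the counting is not given in the sources used here.

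*Nr1h2* encodes LXRβ, the receptor found in most cell types, at chr7:44549616-44553951 on the minus strand. It had 34.7, 32.7 and 38.0 CPM in control and 43.5, 34.3 and 41.1 in AclyM-KO macrophages after 3 h LPS. After 24 h it had 38.2, 38.6 and 35.5 against 41.5, 37.6 and 41.4 CPM. Genotypes overlapped at both times, and the 4 group means stayed within 35.1 and 40.2 CPM. The log2 fold changes were 0.17 (standard error 0.08, adjusted p = 0.146) and 0.11 (standard error 0.08, adjusted p = 0.391). Without AclyM-KO 3 h replicate 2, the value at 3 h was 0.27 with an adjusted p of 0.00844.

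Levels of both receptors can be set against each other once divided by transcript length. The ratio of *Nr1h3* to *Nr1h2*, each in CPM per kb, was 0.446 to 0.627 in control and 0.372 to 0.391 in AclyM-KO libraries after 3 h. It was 1.04 to 1.15 and 0.648 to 0.734 after 24 h. *Nr1h3* thus exceeded *Nr1h2* per length in the control libraries at 24 h only, of the 4 groups.

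*Abca1* encodes the transporter that hands cholesterol and phospholipid to lipid-poor apolipoproteins, and lies at chr4:53030787-53159895 on the minus strand. After 3 h LPS, control libraries had 461.8, 502.8 and 527.4 CPM and AclyM-KO libraries 397.6, 302.4 and 309.0. After 24 h they had 398.4, 366.7 and 340.5 against 273.3, 280.4 and 224.2 CPM. Every AclyM-KO library was below every control library of its time, although AclyM-KO replicate 1 at 3 h came close to the controls. The log2 fold changes were -0.57 (standard error 0.12, adjusted p = 0.0144) at 3 h and -0.51 (standard error 0.12, adjusted p = 0.0248) at 24 h, which is 0.676 and 0.704 times the control level. Neither reached the fold threshold. Both adjusted p-values depended on single libraries, at 3 h with 0.0543 without control replicate 3 and 0.0665 without AclyM-KO replicate 2, and at 24 h with 0.0764 without control replicate 2, 0.0596 without control replicate 3 and 0.0558 without AclyM-KO replicate 1. The effects at both times differed by 0.06 (standard error 0.18, adjusted p = 0.890).

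*Abcg1*, the transporter that passes cholesterol on to mature HDL, lies at chr17:31057675-31117988 on the plus strand. It had 163.3, 156.8 and 159.8 CPM in control and 94.7, 111.1 and 94.1 in AclyM-KO macrophages after 3 h, and 222.6, 212.1 and 207.7 against 146.6, 150.7 and 147.7 after 24 h. The groups were tight and far apart at both times. The log2 fold changes were -0.68 (standard error 0.06, adjusted p = 6.83e-10) and -0.53 (standard error 0.06, adjusted p = 5.06e-08), short of the fold threshold. Without AclyM-KO 3 h replicate 2, the highest of its group, the value at 3 h was -0.76 and past that threshold. The effects differed by 0.15 between the times (standard error 0.08, adjusted p = 0.258), or by 0.22 with an adjusted p of 0.0396 without that library. The ribosomal RNA gene *Gm25447* overlaps *Abcg1* on the same strand.

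*Apoe* encodes apolipoprotein E, which macrophages secrete and which takes up the cholesterol they release. It lies at chr7:19696109-19699188 on the minus strand and had the highest level per length of the 10 genes in every group. After 3 h LPS, control libraries had 1499, 1392 and 1547 CPM and AclyM-KO libraries 919.2, 696.3 and 852.8. After 24 h the values were 482.6, 486.2 and 446.9 against 227.9, 250.7 and 261.9 CPM. The genotypes were far apart at each time, and AclyM-KO macrophages had 0.556 times the control level at 3 h and 0.523 times at 24 h. The log2 fold changes were -0.85 (standard error 0.09, adjusted p = 2.44e-05) and -0.93 (standard error 0.09, adjusted p = 1.09e-05). The call at 3 h rested on AclyM-KO replicate 2, the lowest library, since without it the fold change was -0.74 and short of the fold threshold. No difference between the effects was detected (-0.09, standard error 0.12, adjusted p = 0.737).

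*Apoc2* and *Apoc1* lie next to *Apoe* on chromosome 7. *Apoc2* (chr7:19671579-19677941, minus strand), the cofactor of lipoprotein lipase, had 6.0, 3.41 and 4.78 CPM in control and 6.55, 4.55 and 5.05 in AclyM-KO macrophages after 3 h. After 24 h it had 4.47, 4.01 and 4.79 against 2.89, 2.13 and 2.15 CPM. The genotypes overlapped at 3 h and not at 24 h. In log2 terms the genotypes differed by 0.18 (standard error 0.18, adjusted p = 0.556) at 3 h and -0.90 (standard error 0.18, adjusted p = 9.37e-04) at 24 h. The change of the effect was itself past the threshold, at -1.08 (standard error 0.26, adjusted p = 0.00645). *Gm44805*, a protein-coding gene model on the same strand, overlaps *Apoc2* and had 1339 counts over the 12 libraries and a log2 fold change of -0.91 at 24 h, so which of them the tags came from is uncertain.

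*Apoc1* (chr7:19689481-19692660, minus strand), an inhibitor of lipoprotein clearance, was barely detected. Control libraries had 5, 3 and 2 counts after 3 h and 5, 1 and 2 after 24 h LPS, and AclyM-KO libraries had 2, 5 and 3 counts after 3 h and 0, 0 and 0 after 24 h. A count of 0 allows up to 3 counts, or 0.113 to 0.121 CPM in those AclyM-KO libraries, which is counting error only, and 2 of the 3 controls were below that limit. With the filter on low counts lifted, edgeR's adjusted p for the genotypes was 0.108 at 24 h and 1.0 at 3 h, and DESeq2 gave none. Between 24 h and 3 h in AclyM-KO macrophages the adjusted p was 0.00278 in edgeR without the filter and 0.00592 in DESeq2, on the few counts given above, and in control macrophages it was 0.349 and 0.464.

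*Mylip* encodes a ubiquitin ligase that marks lipoprotein receptors for degradation, at chr13:45389742-45412022 on the plus strand. It had 12.1, 12 and 12.7 CPM in control and 7.89, 10.7 and 10.9 in AclyM-KO macrophages after 3 h, and 47.1, 47.9 and 46.3 against 50.9, 51.2 and 52.5 after 24 h. The genotypes did not overlap at either time, with AclyM-KO lower at 3 h and higher at 24 h. The log2 fold changes were -0.31 (standard error 0.10, adjusted p = 0.0249) and 0.13 (standard error 0.07, adjusted p = 0.226). At 3 h the adjusted p was 0.0613, 0.0529 and 0.0938 without control replicates 1, 2 and 3, 0.0996 with only the groups compared in the fit, and 0.190 without AclyM-KO replicate 1, in which case the fold change shrank to -0.18. The effect at the later time exceeded that at 3 h by 0.45 (standard error 0.12, adjusted p = 0.0146), which became 0.0540 without control 3 h replicate 3 and 0.0597 without AclyM-KO 3 h replicate 1.

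*Lpcat3*, which places polyunsaturated fatty acids into phospholipids, lies at chr6:124663027-124704418 on the plus strand. It had 31.8, 27.5 and 26.9 CPM in control and 33.4, 37.5 and 34.5 in AclyM-KO macrophages after 3 h. After 24 h it had 39.1, 37.7 and 35.7 against 28.3, 28.5 and 29.0 CPM. AclyM-KO libraries were all above the controls at 3 h and all below them at 24 h. In log2 terms the difference was 0.29 (standard error 0.07, adjusted p = 0.00561) at 3 h and -0.39 (standard error 0.07, adjusted p = 2.08e-04) at 24 h, and the effects differed by -0.68 (standard error 0.10, adjusted p = 3.02e-05). *Emg1* overlaps *Lpcat3* on the opposite strand and had log2 fold changes of -0.02 and -0.08, neither past the adjusted p.

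*Arl4c*, a small GTPase of membrane traffic that LXRs induce, lies at chr1:88673125-88702221 on the minus strand. It had 7.39, 10.1 and 10.2 CPM in control and 9.27, 12.4 and 8.89 in AclyM-KO macrophages after 3 h, and 18.8, 19.3 and 20.2 against 23.1, 26.0 and 24.5 after 24 h. The genotypes overlapped at 3 h, and at 24 h AclyM-KO macrophages were higher. The log2 fold changes were 0.15 (standard error 0.12, adjusted p = 0.492) and 0.33 (standard error 0.10, adjusted p = 0.0218). The adjusted p at 24 h was 0.0874 and 0.0708 without control replicates 2 and 3, and 0.106 and 0.0721 without AclyM-KO replicates 2 and 3. The effects differed by 0.18 (standard error 0.16, adjusted p = 0.529).

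Whether the effect of genotype depended on time was thus tested for 9 members, and 3 passed an adjusted p of 0.05 from edgeR's interaction test. *Mylip* had a higher fold change at 24 h, against 4.86% of all genes, and *Apoc2* and *Lpcat3* had a lower one, against 4.66%. *Abca1*, *Abcg1*, *Apoe* and *Nr1h3* were lower in AclyM-KO macrophages at both times, and no interaction was called for any of the 4 in the fit of 12 libraries. Without AclyM-KO 3 h replicate 2, 5 members passed, with *Nr1h3* and *Abcg1* added.

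To describe the course of the response to LPS, 24 h was compared with 3 h in each genotype. These comparisons use the same libraries as those above and are not independent of them. In control macrophages 4 members were called, 3 of them higher at 24 h (*Nr1h3*, *Mylip* and *Arl4c*) and *Apoe* lower, where 40.4% of all genes were called, 20.9% higher and 19.5% lower. In AclyM-KO macrophages 5 were called, with the addition of *Apoc2* as lower (6 with *Apoc1*, also lower, where the filter was lifted or DESeq2 was used), where 41.9% of all genes were called, 21.9% higher and 20% lower. By adjusted p alone, 7 and 8 members passed, against 74.9% and 75.7% of all genes.

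*Mylip* had the largest increase of the members, with log2 fold changes of 1.94 (standard error 0.08, adjusted p = 1.12e-19) in control and 2.38 (standard error 0.08, adjusted p = 1.27e-21) in AclyM-KO macrophages. *Nr1h3* had 1.11 (standard error 0.08, adjusted p = 1.14e-13) and 0.84 (adjusted p = 2.59e-10), the latter 0.74 and below the fold threshold without AclyM-KO 3 h replicate 2. *Arl4c* had 1.08 (adjusted p = 2.15e-09) and 1.26 (adjusted p = 6.58e-11). All 3 genes were low early and high late in both genotypes. *Apoe* had the largest decrease, with -1.65 (adjusted p = 5.77e-10) in control and -1.74 (adjusted p = 3.45e-10) in AclyM-KO macrophages. *Apoc2* had -0.08 (adjusted p = 0.701) in control and -1.16 (adjusted p = 3.41e-06) in AclyM-KO macrophages, which is the interaction given above seen along the other axis.

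The transporters went opposite ways with time by less than the fold threshold. *Abca1* had -0.43 (adjusted p = 0.00946) in control and -0.38 (adjusted p = 0.0198) in AclyM-KO macrophages, the latter -0.24 without AclyM-KO 3 h replicate 1. *Abcg1* had 0.42 (adjusted p = 5.29e-08) and 0.57 (adjusted p = 1.68e-10). In CPM per kb, *Abca1* was 1.61 to 1.88 times *Abcg1* in control and 1.55 to 2.39 times in AclyM-KO libraries at 3 h, and 0.931 to 1.02 and 0.863 to 1.06 times at 24 h. The excess of *Abca1* over *Abcg1* at 3 h was gone at 24 h in both genotypes. *Lpcat3* had 0.38 (adjusted p = 1.89e-05) in control and -0.30 (adjusted p = 4.02e-04) in AclyM-KO macrophages, and *Nr1h2* had 0.09 (adjusted p = 0.307) and 0.02 (adjusted p = 0.815).

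**Figure D3:**
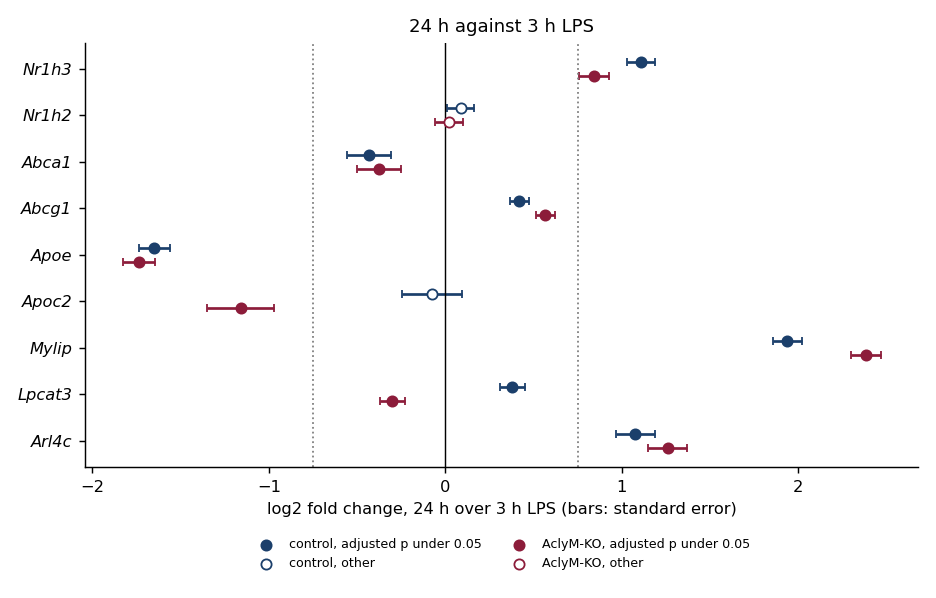
Log2 fold change of 24 h over 3 h LPS (horizontal axis) for the 9 genes tested, in control and AclyM-KO macrophages. Points are estimates from edgeR, bars the standard error, filled points have an adjusted p under 0.05, and dotted lines mark the fold threshold of 0.75. *Mylip*, *Arl4c* and *Nr1h3* lie to the right and *Apoe* to the left in both genotypes, while *Apoc2* lies beyond the left line in AclyM-KO macrophages and near 0 in control.

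Ordered by CPM per kb, *Apoe* stood first in all 4 groups, at 1051 ± 56.4 (SD, n = 3) in control and 584.3 ± 81.3 (SD, n = 3) in AclyM-KO macrophages after 3 h, and at 335.2 ± 15.4 and 175.3 ± 12.3 (SD, n = 3 each) after 24 h. *Abca1* followed at 3 h, with 48.5 ± 3.23 and 32.8 ± 5.18 CPM per kb (SD, n = 3 each). In control macrophages at 3 h the order went on with *Abcg1*, *Nr1h2*, *Lpcat3*, *Nr1h3*, *Apoc2*, *Mylip*, *Arl4c* and *Apoc1*, and the ranges of neighbours did not overlap. In AclyM-KO macrophages at 3 h, the ranges of *Nr1h2* and *Abcg1*, *Abcg1* and *Lpcat3*, *Nr1h3* and *Apoc2*, and *Mylip* and *Arl4c* overlapped, so their order is not set. At 24 h, *Abcg1* and *Abca1* overlapped in both genotypes, at 36.7 ± 1.31 and 35.9 ± 2.83 CPM per kb in control and 25.4 ± 0.36 and 25.3 ± 2.98 in AclyM-KO macrophages (SD, n = 3 each).

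Other genes of the pathway were taken from lists of known function and are described by counts, with all p-values adjusted over all transcripts tested. Of 18 partners of LXR (the RXRs, corepressors and coactivators), 17 were tested. EdgeR and DESeq2 each called 0 of them for genotype at either time. By edgeR's adjusted p alone, 1 was higher and 1 lower at 3 h, against 8.50% and 6.91% of all genes. At 24 h 0 passed in either direction, against 8.32% higher and 5.57% lower over all genes. By edgeR's unadjusted p under 0.05 there were 5 partners at 3 h and 2 at 24 h, where 27.9% and 26.3% of all genes tested had such a p. The median log2 fold change of the 17 partners was -0.02 at 3 h and 0.005 at 24 h. *Rxra*, the main RXR of macrophages, had 0.09 (adjusted p = 0.720) and -0.07 (adjusted p = 0.648). With time, 7 of the 17 were called in each genotype, close to the 40.4% of all genes in control and 41.9% in AclyM-KO macrophages. *Rxra* was higher at 24 h by 1.99 in control and 1.83 in AclyM-KO macrophages.

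Of 9 genes that make or remove LXR ligands, 6 were tested. *Ch25h*, which makes 25-hydroxycholesterol, had 4.81, 4.72 and 3.79 CPM in control and 9.01, 12.2 and 12.4 in AclyM-KO macrophages after 3 h. After 24 h it had 0.574, 0.724 and 0.473 against 1.54, 2.13 and 1.19 CPM. It was called higher in AclyM-KO macrophages at both times, with log2 fold changes of 1.34 (standard error 0.16, adjusted p = 3.81e-07) and 1.54 (standard error 0.27, adjusted p = 1.21e-04).

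LXR targets of macrophages outside the 10 were tested for 9 of 12 genes, and edgeR and DESeq2 each called 0 of them at either time. By unadjusted p under 0.05 there were 5 at 3 h and 6 at 24 h, against 27.9% and 26.3% of all genes. By adjusted p alone, 4 were lower and none higher at 3 h, and 4 were lower and 1 higher at 24 h, with a median of -0.18 and -0.19. Over all genes, 6.91% were lower and 8.50% higher by adjusted p alone at 3 h, and 5.57% and 8.32% at 24 h. The gene that was higher at 24 h was *Tnfaip3*, with a log2 fold change of 0.18 (adjusted p = 0.00804). *Pltp*, which transfers phospholipids between lipoproteins, had 674.2, 670.1 and 657.7 CPM in control and 580.7, 510.8 and 515.2 in AclyM-KO macrophages at 3 h, and log2 fold changes of -0.32 (adjusted p = 4.39e-05) and -0.44 (adjusted p = 4.45e-07). *Mertk*, a receptor for apoptotic cells, had -0.31 (adjusted p = 4.10e-04) and -0.33 (adjusted p = 1.49e-04). *Pltp*, *Mertk*, *Tnfaip3*, *Rxra*, *Srebf1* and *Scarb1* were named after their values were seen.

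The lipogenic targets took another course. Of 10 genes 9 were tested, and *Fads2*, *Fasn*, *Scd1* and *Scd2*, enzymes that build and desaturate fatty acids, were called higher in AclyM-KO macrophages at 3 h (2.34, 1.61, 2.25 and 0.99) and lower at 24 h (-1.24, -1.03, -0.83 and -1.24). The median was 0.51 at 3 h and -0.72 at 24 h, and all 9 genes had an interaction with a lower fold change at 24 h. Over all genes, 1.41% were called higher at 3 h, 0.479% were called lower at 24 h, and 4.66% had such an interaction. *Srebf1*, the lipogenic factor that LXRs induce, had 0.36 (adjusted p = 7.12e-04) and -0.54 (adjusted p = 1.59e-06). In contrast to these genes, *Apoe*, *Abca1*, *Abcg1* and *Nr1h3* had negative values at both times. The other members tested did not. *Lpcat3* (0.29 and -0.39) and *Apoc2* (0.18 and -0.90) changed sign in the same direction as the lipogenic genes. *Mylip* went the other way (-0.31 and 0.13), and *Nr1h2* and *Arl4c* were positive at both times. Not all of these values passed the adjusted p.

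**Figure D4:**
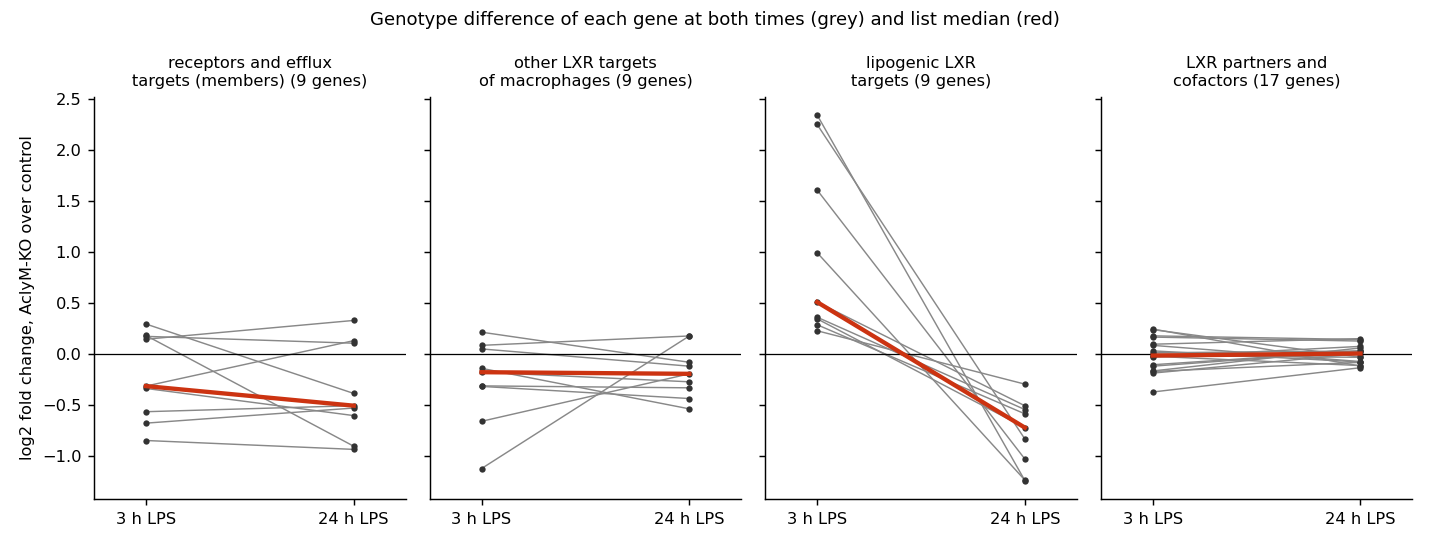
Log2 fold change of AclyM-KO over control (vertical axis) at 3 h and 24 h LPS for the tested genes of 4 lists. Grey lines join the values of a gene and the red line joins the list medians. The medians are -0.31 and -0.51 for the members, -0.18 and -0.19 for other LXR targets of macrophages, 0.51 and -0.72 for lipogenic targets, and -0.02 and 0.005 for LXR partners and cofactors.

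Among receptors that *Mylip* marks for degradation, measured as RNA only, *Lrp8* was called higher at 3 h, at 1.47 (standard error 0.17, adjusted p = 2.35e-07), and had 0.13 (adjusted p = 0.289) at 24 h. *Vldlr* did not pass the filter on low counts.

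Relatives of the members were read against the 2.01% of all genes called for genotype at 3 h and the 1.38% called at 24 h, in either direction. Of 10 further ABCA and ABCG transporters 8 were tested, and *Abcg3* was called lower at 24 h, with 1.52, 1.45 and 1.39 CPM in control and 0.488, 0.563 and 0.384 in AclyM-KO macrophages (log2 fold change -1.58, standard error 0.26, adjusted p = 6.44e-05). Of 16 other genes of efflux and sterol transport 14 were tested, of 8 relatives of *Arl4c* and *Lpcat3* 6 were tested, and of 11 other apolipoproteins 3 were tested, and edgeR called 0 of these 23 genes at either time. By adjusted p alone, 6 of them passed at 3 h and 7 at 24 h, and by unadjusted p under 0.05, 9 and 11. The shares of all genes were 15.4% and 13.9% by adjusted p alone and 27.9% and 26.3% by unadjusted p. DESeq2 called *Scarb1*, a receptor for HDL, at 3 h and none at 24 h. *Scarb1* had a log2 fold change of 0.748 at 3 h in edgeR (adjusted p = 2.59e-09), just under the fold threshold, and -0.35 at 24 h (adjusted p = 5.66e-04).

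The genes whose course over the 12 libraries came nearest to that of a member were sought by the root mean square difference of log2 CPM, each centred on its own mean. For *Nr1h3* these were *Cmklr1*, *Ddb2* and *Arhgap4*, at 0.137, 0.140 and 0.154. For *Apoe* they were *Cd4*, *Itga9* and *Pygl*, at 0.177, 0.193 and 0.195, and for *Abca1* they were *Zfp39*, *Otulinl* and *Chd3*, at 0.143, 0.165 and 0.169.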

How the data were processed

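The authors prepared stranded mRNA libraries, mapped reads to mm10 with STAR 2.5.2b (CASAVA 1.8.2 is also named in the submitters' processing notes) and counted tags on RefSeq transcripts with HOMER. The deposited table holds whole-number counts of 35745 transcripts that were not normalized. The strand setting of the counting is not given in the sources used here.

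Symbols came from a RefSeq gene table and GENCODE's annotation of GRCm38, and 117 transcripts without one (1.13% of counts) stayed in the library sizes and the fit. Counts were fitted in edgeR 4.0.16 (R 4.3.3) with TMM, filterByExpr and robust quasi-likelihood models on 12 libraries in 4 groups. Control 24 h replicate 1 was left out for its depth, which an earlier look at these data had shown. The filter left 19621 transcripts of 11904 genes, and the Benjamini-Hochberg adjustment ran over all of these transcripts. The interaction needed the adjusted p alone. Standard errors were computed from the fold change and the F statistic. The fit was tested on simulated counts.

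The members and lists were chosen with earlier results of these data known. Named genes were the members, *Acly*, list genes called for genotype, receptors marked by *Mylip*, and the 3 nearest genes to *Abca1*, *Nr1h3* and *Apoe*. Alternatives were all 13 libraries, RLE size factors, no filter, DESeq2 1.42.0, a replicate block, 1 transcript per gene, only the groups compared, a fold threshold of 0.5 and each library left out. Promoter windows came from RefSeq on GRCm38. Some list genes are not reported here. All count columns were used (0 left out).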

Additional observations from a re-analysis of the deposited data

Results flagged for a closer look

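The effect of genotype differed between 3 h and 24 h LPS, by edgeR's interaction test on 12 libraries, for 3 members. The log2 fold change of *Apoc2* was lower at 24 h than at 3 h by -1.08, that of *Lpcat3* was lower by -0.68, and that of *Mylip* was higher by 0.45. *Lpcat3* went from above the controls to below them, with no overlap of the groups at either time.

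With control 24 h replicate 1 set beside the other 3 controls at 24 h, the lowest library lay far from the others for 4 members. The gap to the nearest library, as a share of the whole range, was 0.865 for *Abcg1*, 0.836 for *Apoc2*, 0.967 for *Mylip* and 0.930 for *Arl4c*. The lowest library was control 24 h replicate 1 in each case, with 5 counts of *Abcg1* and 0 counts of the other 3 genes, where a single count is 22.4 CPM. The limit was Dixon's 95% critical value for 4 samples, which chance passes in about 1 in 20 groups of ordinary samples. That rate was not tested for a library of so few counts, and the 4 members share that library.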

How the results depend on the processing

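A fold threshold of 0.5 raised the members called for genotype from 1 to 3 at 3 h (*Abca1*, *Abcg1*, *Apoe*) and from 2 to 5 at 24 h (*Nr1h3*, *Abca1*, *Abcg1*, *Apoe*, *Apoc2*). A looser threshold cannot lower such a count, and the share of all genes called at 0.5 is not given here. By adjusted p alone, with no fold threshold, 15.4% of all genes passed at 3 h and 13.9% at 24 h. With each library left out in turn, the counts of members called at the threshold of 0.75 stayed at 1 and 2. Without AclyM-KO 3 h replicate 2, however, the member called at 3 h was *Abcg1* (-0.76) and not *Apoe* (-0.74). The count of interactions ranged from 2 to 5 in those fits, the latter without AclyM-KO 3 h replicate 2. With all 13 libraries no member changed direction or call. Values near 0 changed sign. *Abca1*'s interaction (0.06) was -0.028 with a replicate block and -0.029 to 0.182 with a library left out. *Apoc2*'s time effect in control (-0.08) was 0.03 with the block and -0.258 to 0.142 with a library left out. *Nr1h2*'s time effect in AclyM-KO macrophages (0.02) was -0.01 with RLE size factors, -0.007 with DESeq2 and -0.094 to 0.089 with a library left out. At 3 h, genotype effects of *Apoc2* ranged from -0.008 to 0.39 and of *Arl4c* from -0.023 to 0.235 in those fits. The cause was not tested. Whether replicate numbers pair the samples is not settled. Correlations of deviations between groups were -0.026 to 0.0578 for the same number and -0.0811 to 0.0755 for unlike numbers. Between AclyM-KO 3 h and 24 h they were 0.0416, 0.0442 and 0.0232 for the same number and -0.0356 to -0.00624 for unlike numbers. The replicate block left every count of members called as it was, with *Apoe* at -0.85 and -0.99 at 3 h and 24 h. Control 24 h replicate 4 is the only library of its number, so under the block it adds nothing to the comparisons. By adjusted p alone, *Abca1*'s time effect in control was lost under the block (adjusted p = 0.0516). Without the filter, 105 of 197 genes called at 24 h were higher, against 107 of 164. Depth limits *Apoc1* and *Apoc2*, and with 3 libraries a group an adjusted p that misses the threshold does not show equal levels.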
